A study of Mus musculus with 9 samples.

Results

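The respiratory chain genes of 3 mouse tumour lines are described here, with the ATP synthase, their assembly factors and the genes of the mitochondrial genome. They were taken by symbol: every gene starting with Nduf, Uqcr, Atp5, mt- or Cox and a digit, together with Sdha to Sdhd, Cyc1 and Cycs. The rule found 117 of the 11046 genes in the deposited count table, and all 117 passed the filter on low counts. Of these, 100 are nuclear: 81 genes of subunits of complexes I to V or cytochrome c, 17 of assembly factors, and 2 rows named as pseudogenes. The other 17 are mitochondrially encoded: 12 mRNAs, 2 ribosomal RNAs and 3 transfer RNAs. The mitochondrial gene mt-Nd4l was not analysed here.

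The lines were grown in culture without treatment, and each gave 3 libraries, A, B and C, of poly(A)-selected, strand-marked RNA. By their labels 482N1 is a lung non-small cell carcinoma, B16F10-BrM a BRAF mutant melanoma and E0771-BrM a breast cancer of the triple negative kind, all with genotype WT. BrM stands for brain metastatic. DMEM was the medium of 482N1 and B16F10-BrM, whereas RPMI 1640 with HEPES was that of E0771-BrM, so the medium cannot be told apart from the line in any comparison with E0771-BrM. Each tumour type is represented by 1 line, and the labels do not say whether the libraries of a line came from separate cultures. The p-values therefore measure the spread between these libraries, which may be technical.

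The respiratory chain sits in the inner mitochondrial membrane. Complex I takes electrons from NADH and complex II from succinate, coenzyme Q passes them to complex III, cytochrome c carries them to complex IV, which reduces oxygen, and complex V uses the resulting proton gradient to make ATP. Complexes I, III, IV and V are built from subunits of both genomes, whereas complex II and cytochrome c are wholly nuclear. The mitochondrial mRNAs are cut from long transcripts of a circular genome made by a polymerase of their own, and nuclear genes supply that polymerase and the enzymes that cut and stabilise the RNAs.

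Library totals ran from 7332390 to 9293348 counts. Levels below are CPM, read counts normalised to library size, differences are log2 fold changes with their standard error (SE), and a gene is called where the adjusted p of edgeR's quasi-likelihood test, over the 11037 genes tested, is below 0.05. The melanocyte gene Dct stood at a mean of 17216 CPM in B16F10-BrM, where the epithelial keratin Krt18 had no count. Krt8 and Krt18 were at 3512 and 4180 CPM in 482N1, and at 188 and 0.376 CPM in E0771-BrM, whose Krt18 was near 0. Libraries A and C of 482N1 and E0771-BrM held Dct at 0.106% to 0.260% of its level in B16F10-BrM, and their B libraries at 0.00979% and 0.0202%. The share of ribosomal Rn18s in all counts was 12.3% for 482N1, 7.24% for B16F10-BrM and 7.44% for E0771-BrM.

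B16F10-BrM had the largest share of its counts in nuclear subunit genes, and E0771-BrM the smallest share in mitochondrial mRNAs. The 81 nuclear subunit genes made up 1.30% ± 0.0707 of the 482N1 counts, 2.36% ± 0.0418 of those of B16F10-BrM and 1.57% ± 0.0725 of those of E0771-BrM (SD, n = 3 each). The 12 mitochondrial mRNAs took 1.73% ± 0.0647, 2.21% ± 0.281 and 1.08% ± 0.0969 in the same order. No library of one line overlapped with those of another in either share of all counts. Without ribosomal RNA in the total, the mitochondrial mRNA shares of 482N1 and B16F10-BrM overlapped. Library B of B16F10-BrM was then at 2.08% and library B of 482N1 at 2.19%. The ratio of mitochondrial mRNA counts to nuclear subunit counts was 1.33 ± 0.117 for 482N1, 0.935 ± 0.133 for B16F10-BrM and 0.693 ± 0.0947 for E0771-BrM. Each share has 3 values per line, for which the smallest exact permutation p is 0.1, so no test is given for it. In bulk RNA, fewer transcripts per cell and fewer cells with them cannot be told apart.

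**Figure D1:**
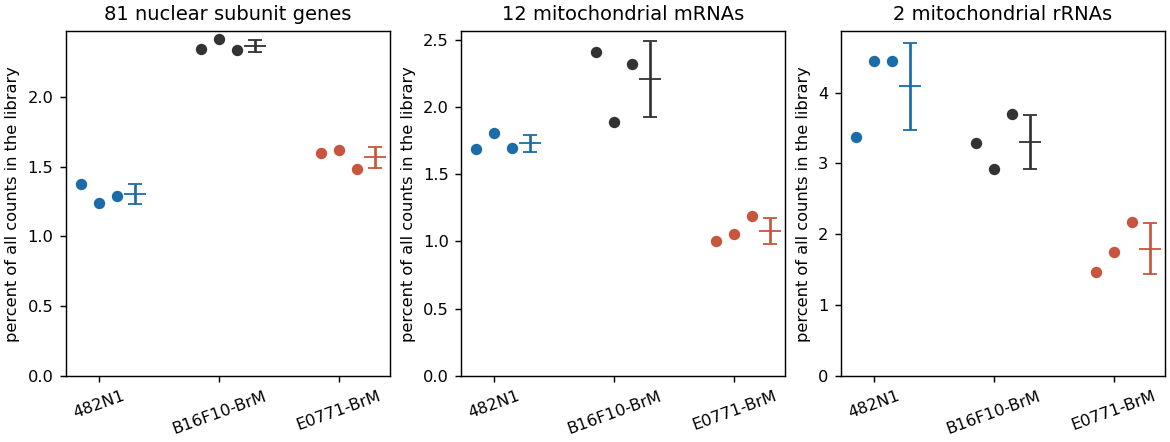
Percent of all counts in a library taken by 81 nuclear subunit genes, 12 mitochondrial mRNAs and 2 mitochondrial ribosomal RNAs; points are libraries A, B and C, and the bar beside them is the mean with its SD. Nuclear subunit genes reached 2.36% on average in B16F10-BrM, and mitochondrial mRNAs fell to 1.08% in E0771-BrM.

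Most nuclear subunit genes were higher in B16F10-BrM than in 482N1, and most were lower in E0771-BrM than in B16F10-BrM. Against 482N1, 60 of 81 were higher in B16F10-BrM and 11 lower, where 77.8% of all genes tested were called, 38% higher and 39.9% lower. The median log2 fold change of the 81 was 0.72, beside -0.04 over all genes. E0771-BrM against 482N1 gave 33 higher and 32 lower, where 78.1% of all genes were called, 37.7% higher and 40.4% lower, with a median of 0.05 beside -0.04. E0771-BrM against B16F10-BrM gave 6 higher and 60 lower, where 73.7% of all genes were called, 37.2% higher and 36.5% lower, with a median of -0.57 beside 0.02. When 482N1 and E0771-BrM were each represented by their library B alone, the one with less Dct, the counts were 60 and 9, 33 and 22, and 6 and 53 in the same order. These comparisons share libraries in pairs and are not independent of each other. Between library replicates of a line the coefficient of variation of a subunit gene had a median of 6.32% for 482N1, 6.11% for B16F10-BrM and 6.88% for E0771-BrM.

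Read by line, 49 of the 81 subunit genes were called higher in B16F10-BrM than in both other lines, and 3 lower than in both. 482N1 was called lower than both others for 30 and higher for 8, and E0771-BrM lower than both for 28 and higher for 4. The share of all genes called against both other lines was not computed, so these counts have no such share beside them. In a single comparison, 36.5% to 40.4% of all genes tested were called in a given direction. Atp5md, a small subunit of the ATP synthase membrane part, was called in no comparison. Its levels were 276, 263 and 267 CPM in 482N1, 292, 273 and 279 in B16F10-BrM and 309, 277 and 276 in E0771-BrM. The range of B16F10-BrM overlapped those of both other lines. The lowest E0771-BrM library, at 275.9 CPM, lay just above the highest of 482N1, at 275.8. Some nuclear genes overlap a neighbour on the genome or share sequence with other transcripts, so their reads may be split. Leaving out the subunit genes over 20% on either measure in GENCODE M21, or without an entry there, left 70. Of these, 53 were higher and 9 lower in B16F10-BrM against 482N1, 29 and 27 in E0771-BrM against 482N1, and 5 and 52 in E0771-BrM against B16F10-BrM.

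**Figure D2:**
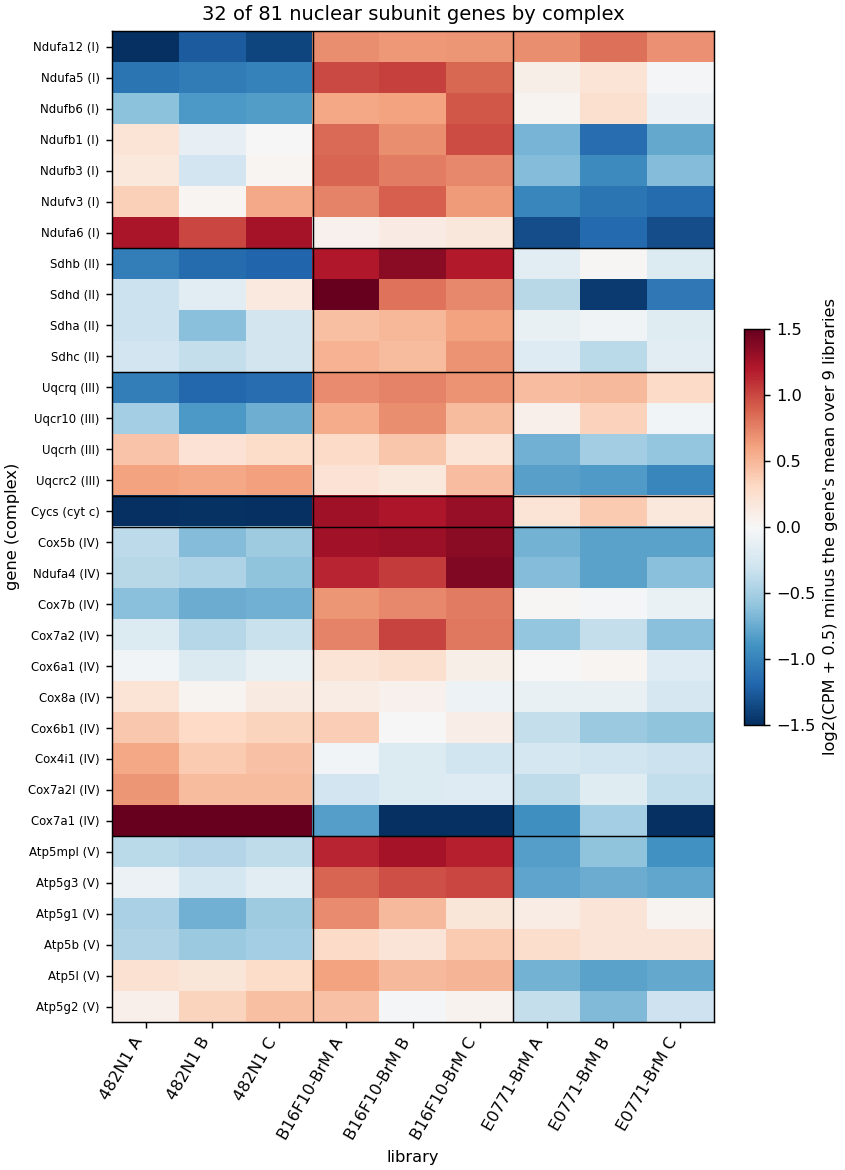
Level of 32 of the 81 nuclear subunit genes in 9 libraries, those with the largest called differences in their complex and those of tissue isoform families, as log2(CPM + 0.5) minus the gene's mean over the libraries, with rows grouped by complex and sorted by the B16F10-BrM against 482N1 fold change; the colour scale ends at ± 1.5. The 3 B16F10-BrM columns are mostly red, and Cox7a1 and Ndufa6 stand out as red in 482N1.

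The promoters of the 3 subunit genes that rose most in B16F10-BrM over 482N1 (Cycs, Sdhb and Ndufa12) and of the one that fell most (Cox7a1) are shown for comparison. They are RefSeq windows of build GRCm38.p6, from 250 bases before to 50 after the annotated start, written 5′ to 3′ along the gene's strand. Capitals mark a match to cores of factors known to act on respiratory genes: CGCATGCG for NRF1, CCGGAAG for ETS factors such as GABP, and AAGATGGCG for YY1, each searched on both strands.
Cycs (chr6:50566520-50566819, minus strand): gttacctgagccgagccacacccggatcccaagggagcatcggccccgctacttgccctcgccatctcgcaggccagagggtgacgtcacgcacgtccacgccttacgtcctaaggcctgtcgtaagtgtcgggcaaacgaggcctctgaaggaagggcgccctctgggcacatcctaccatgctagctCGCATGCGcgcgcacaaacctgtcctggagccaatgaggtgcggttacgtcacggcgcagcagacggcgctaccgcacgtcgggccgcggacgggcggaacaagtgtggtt
Sdhb (chr4:140961021-140961320, plus strand): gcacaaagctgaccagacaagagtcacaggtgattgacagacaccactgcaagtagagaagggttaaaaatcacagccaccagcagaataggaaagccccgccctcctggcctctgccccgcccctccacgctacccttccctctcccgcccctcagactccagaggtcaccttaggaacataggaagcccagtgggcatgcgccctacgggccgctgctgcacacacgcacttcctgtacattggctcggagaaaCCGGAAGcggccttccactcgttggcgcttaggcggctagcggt
Ndufa12 (chr10:94198785-94199084, plus strand): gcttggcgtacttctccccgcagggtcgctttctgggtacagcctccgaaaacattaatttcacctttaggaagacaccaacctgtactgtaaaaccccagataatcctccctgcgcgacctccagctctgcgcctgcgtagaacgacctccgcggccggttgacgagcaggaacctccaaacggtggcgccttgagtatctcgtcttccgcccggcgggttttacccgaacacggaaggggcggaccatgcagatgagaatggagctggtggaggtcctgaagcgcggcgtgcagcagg
Cox7a1 (chr7:30183921-30184220, plus strand): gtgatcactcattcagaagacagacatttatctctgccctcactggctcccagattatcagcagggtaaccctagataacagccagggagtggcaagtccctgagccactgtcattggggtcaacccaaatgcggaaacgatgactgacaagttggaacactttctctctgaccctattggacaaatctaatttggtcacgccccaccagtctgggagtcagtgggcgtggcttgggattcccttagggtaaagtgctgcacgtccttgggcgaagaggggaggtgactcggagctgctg

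The Cycs window holds 1 NRF1 core and the Sdhb window 1 ETS core, while those of Ndufa12 and Cox7a1 hold none of the 3. Windows were found for 68 of the 81 subunit genes, 73 in all. The NRF1 core was in 13.7% of them against 1.87% of all 32851 windows, the ETS core in 23.3% against 8.86%, and the YY1 core in 9.59% against 1.4%. At least 1 core was in 38.4% of the subunit windows and in 11.5% of all windows. The latter cover 27025 genes, more than the 11046 of the count table, and were not limited to genes measured here. The 2 sets are thus unlike, and a comparison with measured genes alone was not made. For the subunit genes called higher in B16F10-BrM than in both other lines the share was 35.7% of 42 windows, and for the other subunit genes 41.9% of 31. For the assembly factors, 66.7% of 15 windows held at least 1 core, mostly the ETS core with 53.3%. A match is a description of letters and not a site, and no match speaks only of this window.

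Complex I, the entry point for NADH, had 37 measured nuclear subunit genes, and most of them followed the pattern of the whole set. In B16F10-BrM against 482N1, 29 were higher and 5 lower (78.4% and 13.5%), beside 38% and 39.9% of all genes tested. The median log2 fold change was 0.74. In E0771-BrM against 482N1, 17 were higher and 13 lower (45.9% and 35.1%, median 0.09), beside 37.7% and 40.4%. In E0771-BrM against B16F10-BrM, 3 were higher and 27 lower (8.11% and 73.0%, median -0.55), beside 37.2% and 36.5%. The gene furthest up was Ndufa12, an accessory subunit, at 63.97, 81.5 and 74.8 CPM in 482N1, 315, 306 and 308 in B16F10-BrM and 317, 347 and 312 in E0771-BrM. 482N1 stood apart from the other two lines, by 2.07 ± 0.08 (SE) for B16F10-BrM (adjusted p = 9.95e-28) and 2.15 ± 0.08 (SE) for E0771-BrM (adjusted p = 3.88e-28). Those 2 differed by 0.07 ± 0.07 (SE) (adjusted p = 0.393). Ndufa5, an accessory subunit of the arm that faces the matrix, was graded over the lines at 120.1, 124 and 128 CPM in 482N1, 274, 295 and 254 in E0771-BrM and 513, 523 and 467 in B16F10-BrM, with no overlap between any of them. It rose by 2.01 ± 0.08 (SE) in B16F10-BrM and by 1.15 ± 0.08 (SE) in E0771-BrM over 482N1 (adjusted p = 1.88e-28 and 8.3e-19). Ndufb6 rose in both by 1.495 ± 0.11 (SE) and 0.85 ± 0.11 (SE) (adjusted p = 3.59e-17 and 2.09e-09), and Ndufs5 by 1.32 ± 0.09 (SE) and 1.26 ± 0.09 (SE) (adjusted p = 1.29e-17 and 8.05e-17). Both share reads uncertainly with other transcripts, since 31.6% and 21.7% of their 50-base words occur elsewhere.

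Ndufa6, Ndufa7 and Ndufa13 ran against the set and were lower in B16F10-BrM against 482N1. Ndufa6, an accessory subunit of the LYR family, was highest in 482N1, at 409.8, 352 and 417 CPM, against 183, 192 and 198 in B16F10-BrM and 69.4, 78.1 and 69.6 in E0771-BrM. The 3 lines were fully apart, and E0771-BrM lay lower than 482N1 by a log2 fold change of -2.44 ± 0.08 (SE) (adjusted p = 1.94e-30) and lower than B16F10-BrM, at -1.40 ± 0.08 (SE) (adjusted p = 7.69e-21). Ndufa7 was also highest in 482N1, at 191, 171 and 202 CPM, against 87.2, 88.8 and 96.01 in B16F10-BrM and 102, 89.6 and 92.4 in E0771-BrM, whose ranges overlapped. Ndufa13, known also as GRIM-19, was at 231, 220.3 and 222 CPM in 482N1, 184, 164 and 150.4 in B16F10-BrM and 84.8, 92.5 and 78.8 in E0771-BrM. It fell against 482N1, at -0.43 ± 0.08 (SE) and -1.39 ± 0.08 (SE) on the log2 scale (adjusted p = 2.87e-06 and 1.11e-20), and 28.5% of its 50-base words are shared. Ndufv3, a small subunit beside the flavoprotein, was at 225, 179 and 259 CPM in 482N1, 294, 325 and 272 in B16F10-BrM and 88.4, 81.8 and 78.2 in E0771-BrM. It followed the set, with a rise of 0.43 ± 0.10 (SE) in B16F10-BrM over 482N1 (adjusted p = 0.000324). E0771-BrM was the low line, at -1.41 ± 0.10 (SE) against 482N1 and -1.84 ± 0.10 (SE) against B16F10-BrM (adjusted p = 3.3e-12 and 1.54e-14). Ndufb1 also followed the set, at 62.2, 49.2 and 53.2 CPM in 482N1, 97.2, 87.4 and 106 in B16F10-BrM and 32.9, 24.1 and 31.3 in E0771-BrM. It was higher in B16F10-BrM than in 482N1 by 0.82 ± 0.10 (SE) and lower in E0771-BrM than in B16F10-BrM, at -1.72 ± 0.11 (SE) (adjusted p = 1.05e-09 and 1.45e-18).

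Nuclear core subunits of complex I, among them those that hold the flavin and the iron-sulphur clusters, differed in direction. Those given here were grouped after their values were seen. In B16F10-BrM against 482N1, Ndufs1 and Ndufv2 were higher, by log2 fold changes of 1.06 and 0.80. Ndufv1, the subunit that binds the flavin, was lower, at -0.55. Ndufs3, Ndufs7 and Ndufs8 were not called, at 0.02, -0.14 and 0.01. In E0771-BrM against 482N1, Ndufs1 and Ndufs8 were higher (0.53 and 0.88) and Ndufs3 and Ndufs7 lower (-0.53 and -0.75). Ndufs8, which carries iron-sulphur clusters, was the subunit gene with the largest rise in E0771-BrM over B16F10-BrM. It was at 76.1, 87.7 and 70.6 CPM in B16F10-BrM and 142, 159 and 126 in E0771-BrM, a log2 fold change of 0.87 ± 0.09 (SE) (adjusted p = 6.83e-12). Ndufa2, a small accessory subunit, had means of 392 ± 34.1, 323 ± 27.9 and 447 ± 39.1 CPM in 482N1, B16F10-BrM and E0771-BrM (SD, n = 3 each). It was lowest in B16F10-BrM. Its call as higher in E0771-BrM than in 482N1 (adjusted p = 0.0216) was lost without library B or C of 482N1 or B of E0771-BrM (adjusted p = 0.0768, 0.103 and 0.177).

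**Figure D3:**
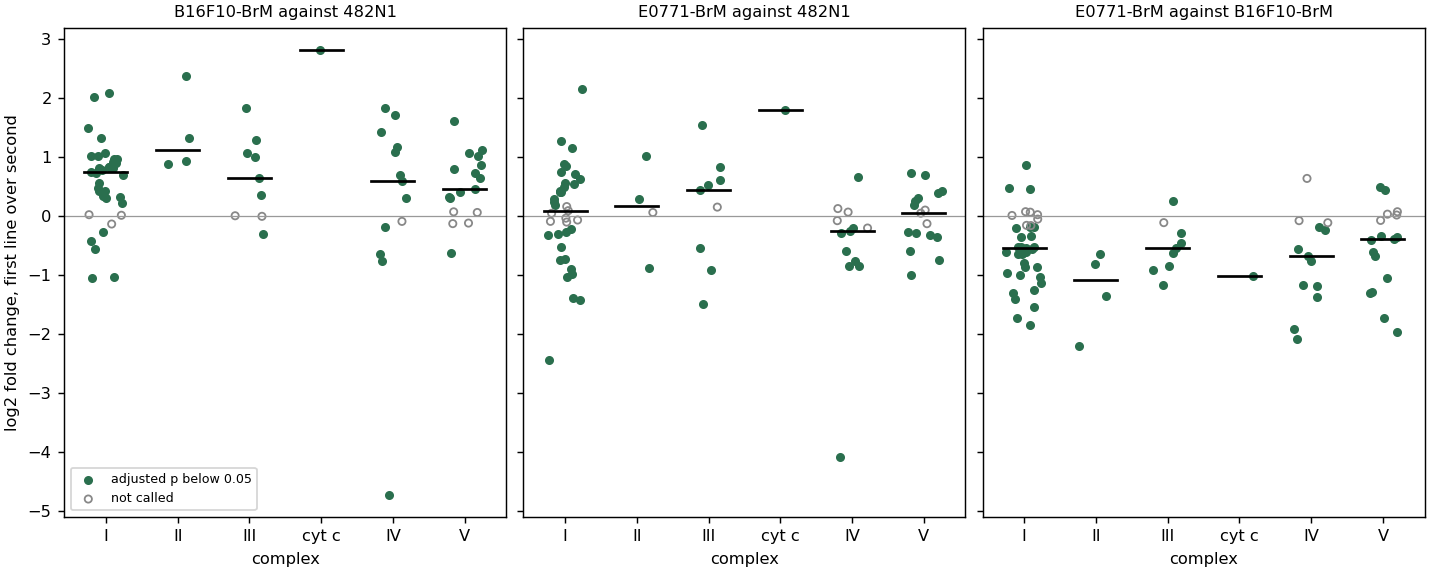
Log2 fold change of each nuclear subunit gene by complex in the 3 comparisons of lines; filled points have an adjusted p below 0.05, open points do not, and bars are medians. Most points lie above 0 in B16F10-BrM against 482N1 and below 0 in E0771-BrM against B16F10-BrM; the low point in complex IV of the first and second panels is Cox7a1.

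Complex II is the succinate dehydrogenase that also serves in the TCA cycle. All 4 of its genes were higher in B16F10-BrM than in 482N1 and lower in E0771-BrM than in B16F10-BrM. Of all genes tested, 38% were higher in the first of these comparisons and 36.5% lower in the second. Sdhb, its iron-sulphur subunit, was at 187, 172 and 169 CPM in 482N1, 880.1, 978 and 874 in B16F10-BrM and 340.2, 387 and 334 in E0771-BrM. The 3 ranges were well apart. Its log2 fold change was 2.37 ± 0.08 (SE) in B16F10-BrM and 1.01 ± 0.07 (SE) in E0771-BrM over 482N1 (adjusted p = 2.26e-31 and 5.44e-17). Sdha, the flavoprotein, was at 93.9, 75.7 and 96.97 CPM in 482N1, 159.9, 166 and 179 in B16F10-BrM and 108, 113 and 103 in E0771-BrM. Sdhc, a membrane anchor, was at 38.4, 36.7 and 39.04 CPM in 482N1, 68.1, 65.6 and 75.8 in B16F10-BrM and 41.1, 35.6 and 42.1 in E0771-BrM. The difference was smaller for these than for Sdhb, with 0.92 and 0.88 in B16F10-BrM over 482N1. Sdhd, the second membrane anchor, was lowly counted, at 6.84, 7.703 and 9.63 CPM in 482N1, 29.7, 15.6 and 14.6 in B16F10-BrM and 6.34, 2.88 and 3.87 in E0771-BrM, with library A of B16F10-BrM well above its other two. It rose in B16F10-BrM by 1.32 ± 0.29 (SE) (adjusted p = 0.00081). Its fall in E0771-BrM against 482N1, -0.89 ± 0.36 (SE) (adjusted p = 0.0343), was not called without library A, B or C of 482N1 (adjusted p = 0.062, 0.0842 and 0.104) or without library B or C of E0771-BrM (adjusted p = 0.122 and 0.121).

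Complex III, which passes electrons from coenzyme Q to cytochrome c, had 9 nuclear genes. Of these, 6 were higher and 1 lower in B16F10-BrM against 482N1, 5 and 3 in E0771-BrM against 482N1, and 1 and 7 in E0771-BrM against B16F10-BrM. These are 66.7% and 11.1%, 55.6% and 33.3%, and 11.1% and 77.8%. Of all genes tested, 38% and 39.9%, 37.7% and 40.4%, and 37.2% and 36.5% were called higher and lower. The median log2 fold changes of the 9 genes were 0.64, 0.43 and -0.54. Uqcrq, a small subunit, was at 174, 158 and 162 CPM in 482N1, 584, 598 and 568 in B16F10-BrM and 493, 501 and 436 in E0771-BrM. It rose over 482N1 by 1.82 ± 0.07 (SE) and 1.53 ± 0.07 (SE) (adjusted p = 2.8e-27 and 3.63e-24). Uqcr10 rose in the same comparisons by 1.28 ± 0.09 (SE) and 0.83 ± 0.09 (SE) (adjusted p = 8.76e-13 and 6.81e-09). The 2 large core proteins parted. Uqcrc1 was higher in both lines than in 482N1 (0.64 and 0.53), whereas Uqcrc2 was lower in both. Uqcrc2 stood at 177, 174 and 179 CPM in 482N1, 136, 130.1 and 161 in B16F10-BrM and 65.9, 64.5 and 58.97 in E0771-BrM. The E0771-BrM libraries were all below the others, at -1.48 ± 0.08 (SE) against 482N1 (adjusted p = 3.81e-21). Of the subunits that carry redox groups, cytochrome c1 (Cyc1) was higher in B16F10-BrM than in 482N1 by 0.99 ± 0.09 (SE) (adjusted p = 4.47e-14). The Rieske protein Uqcrfs1 was at 0.00 in that comparison, not called, and lower in E0771-BrM, at -0.54. Uqcr11 was the gene of complex III that E0771-BrM held higher than both others. Its means were 143 ± 10.4, 182 ± 8.46 and 216 ± 25.1 CPM in 482N1, B16F10-BrM and E0771-BrM (SD, n = 3 each). Its call against B16F10-BrM (adjusted p = 0.00427) was lost without library B of E0771-BrM (adjusted p = 0.0882).

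Cycs, the somatic cytochrome c that carries electrons to complex IV and also takes part in apoptosis, differed most of all subunit genes between B16F10-BrM and 482N1 in the upward direction. It was at 43.3, 45.98 and 45.5 CPM in 482N1, 150.0, 171 and 145 in E0771-BrM and 314, 302 and 322 in B16F10-BrM, with each line apart from the others. The log2 fold change over 482N1 was 2.80 ± 0.08 (SE) in B16F10-BrM and 1.79 ± 0.08 (SE) in E0771-BrM, and E0771-BrM lay -1.01 ± 0.08 (SE) from B16F10-BrM (adjusted p = 1.33e-32, 1.95e-24 and 8.92e-17). Cytochrome c has many processed copies in the genome, and 26.1% of the 50-base words of Cycs occur in other transcripts, so reads may be lost or gained there.

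Complex IV, cytochrome c oxidase, had 13 nuclear genes, of which 1 was higher and 8 lower in E0771-BrM than in 482N1 (median log2 fold change -0.25). B16F10-BrM against 482N1 gave 8 higher and 4 lower (median 0.59), and E0771-BrM against B16F10-BrM 0 higher and 10 lower (median -0.67). In the order given, these are 7.69% and 61.5%, 61.5% and 30.8%, and 0% and 76.9%. Of all genes tested, 37.7% and 40.4%, 38% and 39.9%, and 37.2% and 36.5% were called higher and lower. Cox5b, which sits on the matrix side and binds zinc, was at 114, 95.6 and 104 CPM in 482N1, 361, 365 and 384 in B16F10-BrM and 91.6, 86.03 and 85.7 in E0771-BrM. B16F10-BrM stood far above the others, by 1.82 ± 0.08 (SE) over 482N1 (adjusted p = 2.4e-26). E0771-BrM lay -2.08 ± 0.08 (SE) from it (adjusted p = 2.98e-28). Ndufa4, named for complex I but known as a subunit of complex IV, showed the same order. It was at 43.1, 41.4 and 37.6 CPM in 482N1, 127, 119.9 and 151 in B16F10-BrM and 36.3, 32.6 and 37.03 in E0771-BrM. The difference of B16F10-BrM from 482N1 was 1.70 ± 0.10 (SE) (adjusted p = 1.55e-21). That of E0771-BrM was -0.21 ± 0.10 (SE) and not called (adjusted p = 0.0673), except without library C of 482N1 (adjusted p = 0.0368). Cox7b was the gene higher in E0771-BrM than in 482N1, at 245, 226 and 229 CPM in 482N1 and 383, 373 and 352 in E0771-BrM, with 599.6, 623 and 651 in B16F10-BrM. The catalytic core of this complex, Cox1 to Cox3, is mitochondrially encoded and is given below.

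The sharpest difference of the set was in a tissue isoform of complex IV, Cox7a1. It had 439 summed counts in 482N1, and only 18 in B16F10-BrM and 26 in E0771-BrM. Cox7a1, the isoform of heart and skeletal muscle, was at 19.6, 15.8 and 19.8 CPM in 482N1, 1.25, 0.251 and 0.466 in B16F10-BrM and 1.14, 1.68 and 0.374 in E0771-BrM. All 3 libraries of 482N1 were far above the other 6, by log2 fold changes of -4.71 ± 0.32 (SE) for B16F10-BrM and -4.08 ± 0.30 (SE) for E0771-BrM (adjusted p = 8.23e-18 and 1.46e-16). E0771-BrM and B16F10-BrM differed by 0.63 ± 0.52 (SE) (adjusted p = 0.261), which was called without library A of B16F10-BrM (adjusted p = 0.0322). Its widely expressed partner Cox7a2 was at 372, 318 and 341 CPM in 482N1, 715, 863 and 739 in B16F10-BrM and 286, 334 and 276 in E0771-BrM. B16F10-BrM had the highest mean. The difference of Cox7a2 in E0771-BrM from 482N1, -0.20 ± 0.08 (SE) (adjusted p = 0.0193), was not called without library A of 482N1 or A or C of E0771-BrM (adjusted p = 0.132, 0.0829 and 0.129). Cox7a1 thus made up 5.07% ± 0.383 of the summed Cox7a1 and Cox7a2 counts for 482N1, 0.0889% ± 0.0761 for B16F10-BrM and 0.345% ± 0.189 for E0771-BrM (SD, n = 3 each). The related Cox7a2l, known for joining complexes III and IV, was also highest in 482N1, at 462, 404 and 404 CPM against 238, 253 and 256 in B16F10-BrM and 224, 257 and 225 in E0771-BrM. So was Cox4i1, the common isoform of the largest nuclear subunit, at 510.1, 448 and 461 CPM in 482N1, 329.7, 296 and 276 in B16F10-BrM and 284, 276 and 272 in E0771-BrM. B16F10-BrM lay below 482N1, at -0.65 ± 0.07 (SE) for Cox4i1 (adjusted p = 3.52e-11) and -0.77 ± 0.07 (SE) for Cox7a2l (adjusted p = 4.19e-13).

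Among the other isoform families, Cox6a1 ranged from 352, 309.9 and 335 CPM in 482N1 to 416, 427 and 384 in B16F10-BrM, a small rise of 0.30 ± 0.07 (SE) (adjusted p = 0.000262). Cox6b1 fell in E0771-BrM, to 151, 132 and 127 CPM from 258, 239 and 246 in 482N1 (-0.85 ± 0.08 (SE), adjusted p = 1.51e-12). Its difference in B16F10-BrM from 482N1 was -0.18 ± 0.08 (SE) (adjusted p = 0.0393) and was not called without library A or C of 482N1 or without library B or C of B16F10-BrM (adjusted p = 0.122, 0.0608, 0.264 and 0.146). Cox8a was at 473 ± 28.2 CPM for 482N1, 444 ± 29.8 for B16F10-BrM and 389 ± 22.6 for E0771-BrM. Other isoforms of these families, such as those of heart, muscle and lung, were not analysed here. The 2 pseudogene rows were low. Cox5b-ps was at 5.83, 5.27 and 4.08 CPM in B16F10-BrM and 1.03, 0.963 and 1.27 in 482N1, 1.36% and 1.03% of summed Cox5b and Cox5b-ps counts. Cox7c-ps1 was at 3.96, 1.51 and 2.91 CPM in B16F10-BrM and 2.58, 1.204 and 1.65 in 482N1.

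Complex V, the ATP synthase, had 17 nuclear genes, with 12 higher and 1 lower in B16F10-BrM against 482N1, 7 and 7 in E0771-BrM against 482N1, and 2 and 11 in E0771-BrM against B16F10-BrM. These are 70.6% and 5.88%, 41.2% and 41.2%, and 11.8% and 64.7%. Of all genes tested, 38% and 39.9%, 37.7% and 40.4%, and 37.2% and 36.5% were called higher and lower. The second pair lay near its share of all genes. The medians of the 17 genes were 0.46, 0.05 and -0.39. In the F1 head, which makes ATP, the catalytic beta subunit Atp5b rose over 482N1 in both lines. It was at 423, 391 and 404 CPM in 482N1, 706, 662 and 756 in B16F10-BrM and 694, 660.2 and 661 in E0771-BrM (0.80 ± 0.07 (SE) and 0.72 ± 0.07 (SE), adjusted p = 9.64e-15 and 2.75e-13). The alpha subunit Atp5a1 rose by 0.65 and 0.25 and the epsilon subunit Atp5e by 0.86 and 0.19. The gamma subunit Atp5c1 was at 0.06, not called, in B16F10-BrM and fell, at -0.29 in E0771-BrM. The delta subunit Atp5d was at -0.13 in B16F10-BrM, called lower without its library A (adjusted p = 0.00201), and rose by 0.30 in E0771-BrM. Of these 5 genes, 3 were higher and 0 lower in B16F10-BrM against 482N1, 4 and 1 in E0771-BrM against 482N1, and 1 and 3 in E0771-BrM against B16F10-BrM. The call of Atp5e in E0771-BrM (adjusted p = 0.0202) was lost without its library B (adjusted p = 0.168), and those of Atp5c1 and Atp5d (adjusted p = 0.000463 and 0.00146) when 482N1 and E0771-BrM had library B alone (adjusted p = 0.497 and 0.13). Atp5mpl, a small proteolipid that travels with the enzyme, had the largest difference of the complex. It was at 240.4, 234 and 244 CPM in 482N1, 705, 755 and 712 in B16F10-BrM and 179.6, 209 and 169 in E0771-BrM (1.60 ± 0.07 (SE) over 482N1 and -1.96 ± 0.08 (SE) between the BrM lines, adjusted p = 9.58e-25 and 5.99e-28). Atp5l, subunit g of the membrane part, was at 221, 214 and 228 CPM in 482N1, 287, 265 and 268 in B16F10-BrM and 115, 108 and 110.2 in E0771-BrM. E0771-BrM was below both others (-0.99 against 482N1 and -1.30 against B16F10-BrM). Atp5pb, subunit b of the stalk, was lowest in B16F10-BrM, at 161, 156 and 185 CPM against 261, 246 and 268 in 482N1 and 239, 244 and 224 in E0771-BrM.

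The ring of subunit c is encoded by 3 genes whose mature proteins are identical, and the lines used them in different proportions. Atp5g3 was at 491, 435 and 463 CPM in 482N1, 952, 1016 and 1048 in B16F10-BrM and 301, 311 and 304 in E0771-BrM. Atp5g1 was at 133, 114 and 129.7 CPM in 482N1, 308, 264 and 212 in B16F10-BrM and 203, 215 and 194 in E0771-BrM. Atp5g3 rose in B16F10-BrM over 482N1 by 1.12 ± 0.07 (SE) and fell in E0771-BrM, at -0.60 ± 0.07 (SE) (adjusted p = 5.49e-20 and 8.12e-11). Atp5g1 rose in both, by 1.06 ± 0.10 (SE) and 0.70 ± 0.10 (SE) (adjusted p = 1.29e-10 and 3.3e-07). Of the counts of the 3 genes, Atp5g3 took 70.0% ± 1.37 for 482N1, 75.4% ± 4.14 for B16F10-BrM and 55.2% ± 0.553 for E0771-BrM. Atp5g1 took 18.98% ± 0.627, 19.6% ± 3.45 and 36.9% ± 1.31 in the same order (SD, n = 3 each). E0771-BrM was apart from both other lines in both shares. Atp5g2 was at 62.4, 74.6 and 80.7 CPM in 482N1, 80.2, 58.1 and 61.4 in B16F10-BrM and 46.1, 37.1 and 47.4 in E0771-BrM. Of its 50-base words, 38.3% are shared with other transcripts. Atpif1, the inhibitor of the ATP synthase, which the symbol rule leaves out, was at 445, 427 and 401 CPM in 482N1, 417, 467 and 429.7 in B16F10-BrM and 183, 195 and 177 in E0771-BrM.

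The 17 assembly factors, which build complexes I and IV without staying in them, were counted apart. In B16F10-BrM against 482N1, 11 were higher and 2 lower (median log2 fold change 0.52). E0771-BrM against 482N1 gave 7 and 6 (0.20), and E0771-BrM against B16F10-BrM 2 and 11 (-0.68). These are 64.7% and 11.8%, 41.2% and 35.3%, and 11.8% and 64.7%. Of all genes tested, 38% and 39.9%, 37.7% and 40.4%, and 37.2% and 36.5% were called higher and lower. The second pair lay near its share of all genes. Of the complex I factors, Ndufaf4 was at 13.4, 17.9 and 11.3 CPM in 482N1, 53.1, 52.9 and 63.8 in B16F10-BrM and 35.8, 33.95 and 36.7 in E0771-BrM. It rose over 482N1 by 1.99 ± 0.13 (SE) and 1.31 ± 0.13 (SE) (adjusted p = 6.97e-19 and 2.85e-12). Ndufaf2 rose by 2.24 ± 0.11 (SE) and 1.56 ± 0.11 (SE), but 65.6% of its exons lie opposite another gene and its reads are uncertain. Ndufaf1, which acts at an early step, fell instead. It was at 14.8, 16.01 and 18.4 CPM in 482N1, 9.69, 13.7 and 10.02 in B16F10-BrM and 4.19, 5.88 and 3.99 in E0771-BrM (-1.80 ± 0.20 (SE) in E0771-BrM, adjusted p = 2.65e-11).

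Of the complex IV factors, Cox10, which makes haem O, rose in both lines over 482N1. It was at 36.6, 35.9 and 32.7 CPM there, 74.2, 80.2 and 79.5 in B16F10-BrM and 78.2, 82.7 and 71.8 in E0771-BrM (1.15 ± 0.09 (SE) and 1.14 ± 0.10 (SE), adjusted p = 2.31e-15 and 3.38e-15). Cox15, which acts after it to make haem A, was called in no comparison, at 23.9, 19.02 and 20.3 CPM in 482N1, 20.3, 17.9 and 18.3 in B16F10-BrM and 23.3, 15.6 and 21.4 in E0771-BrM. Cox17, a copper chaperone, was at 44.9, 43.1 and 43.7 CPM in 482N1, 73.5, 64.9 and 65.7 in B16F10-BrM and 33.6, 23.4 and 30.5 in E0771-BrM, where it was lowest. Cox11, which passes copper on, rose by 1.65 ± 0.19 (SE) and 1.49 ± 0.20 (SE) over 482N1 (adjusted p = 1.46e-10 and 3.84e-09), with 48.3% of its exons opposite another gene. Cox14 was at 96.2, 101 and 100.0 CPM in 482N1, 146, 141 and 129.8 in B16F10-BrM and 43.3, 37.6 and 45.01 in E0771-BrM. It fell, at -1.73 ± 0.09 (SE) from B16F10-BrM to E0771-BrM (adjusted p = 5.33e-23). Cox20, a chaperone of the second catalytic subunit, fell there, at -1.37 ± 0.09 (SE) (adjusted p = 6.34e-19), but 91.1% of its exons lie opposite Hnrnpu.

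By called genes and median, the 12 mitochondrial mRNAs together did not share the nuclear pattern of a rise in B16F10-BrM over 482N1. Their share of all counts was larger there, at 2.21% against 1.73%, as given above. Of 12, 4 were higher and 3 lower in B16F10-BrM against 482N1 (33.3% and 25%), beside 38% and 39.9% of all genes tested. The median log2 fold change was 0.05. With upper-quartile scaling the counts were 5 and 2. In E0771-BrM against 482N1, 0 were higher and 10 lower (83.3%, median -0.87), beside 37.7% and 40.4% of all genes. E0771-BrM against B16F10-BrM gave 0 and 10 (83.3%, median -0.86), beside 37.2% and 36.5%. With library B as the sole one for 482N1 and E0771-BrM, the counts were 2 and 2 (median -0.03), 0 and 9 (-1.08), and 0 and 9 (-1.01). Mitochondrial genes have copies in the nuclear genome, and how reads with several matches were counted is not given in the sources used here. Of the 12, 6 have under 10% of their 50-base words in other GENCODE M21 transcripts (mt-Atp8, mt-Cytb, mt-Nd1, mt-Nd2, mt-Nd5 and mt-Nd6), and 6 have over 50% (mt-Atp6, mt-Co1, mt-Co2, mt-Co3, mt-Nd3 and mt-Nd4). This split was made after the values were seen. Among the first 6, 3 were higher and 0 lower in B16F10-BrM against 482N1, 0 and 4 in E0771-BrM against 482N1, and 0 and 5 in E0771-BrM against B16F10-BrM. Among the second 6 the counts were 1 and 3, 0 and 6, and 0 and 5. In B16F10-BrM against 482N1 the medians were 0.22 for the first 6 and -0.18 for the second 6. The first 6 took 0.883% ± 0.0462 of all counts in 482N1 and 1.28% ± 0.148 in B16F10-BrM (SD), with no overlap of libraries. For the second 6 these shares were 0.846% ± 0.0211 and 0.931% ± 0.146, and the libraries overlapped.

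**Figure D4:**
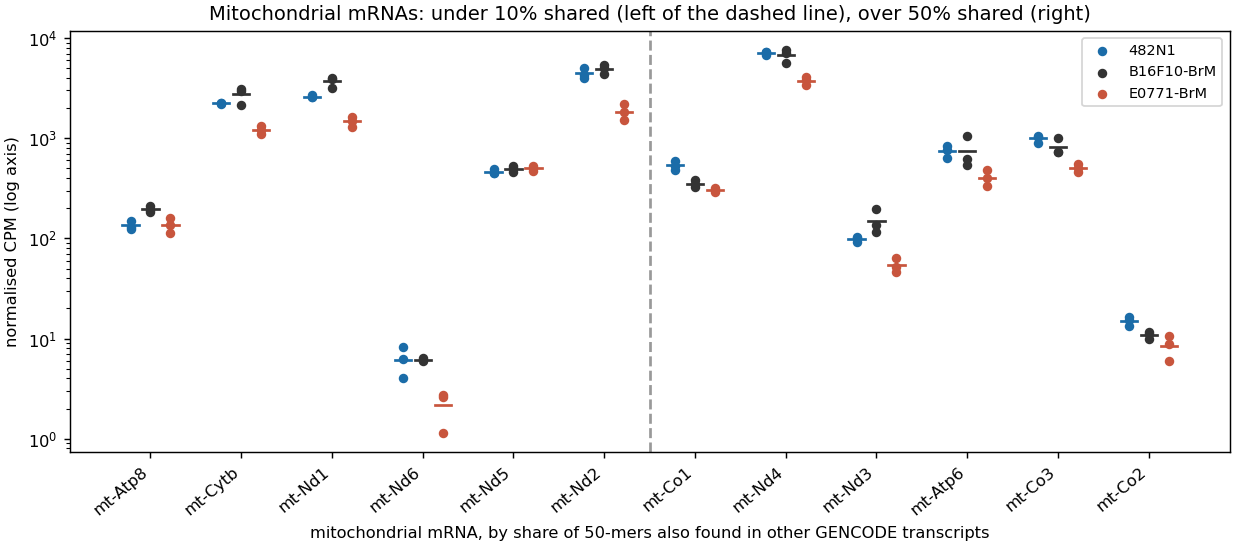
Normalised CPM (log axis) of 12 mitochondrial mRNAs; points are libraries and bars the mean of each line, and genes run from low to high share of 50-base words found in other transcripts. The E0771-BrM mean is lowest for 10 of the 12 genes, and the 3 lines are close for mt-Nd5.

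Among the complex I mRNAs, mt-Nd1 was at 2577, 2559.8 and 2678 CPM in 482N1, 4012, 3149 and 3941 in B16F10-BrM and 1296, 1498 and 1642 in E0771-BrM, with no overlap between lines. It was higher in B16F10-BrM than in 482N1 by 0.51 ± 0.08 (SE) and lower in E0771-BrM, at -0.82 ± 0.08 (SE) (adjusted p = 1.48e-06 and 1.29e-10). For mt-Nd2 the levels were 3984, 5029 and 4309 CPM in 482N1, 4981, 4421 and 5340.2 in B16F10-BrM and 1524, 1835 and 2180.2 in E0771-BrM. They overlapped between 482N1 and B16F10-BrM, with E0771-BrM lower than 482N1, at -1.27 ± 0.13 (SE) (adjusted p = 7.23e-06). For mt-Nd4, the most counted, they were 7174, 7293 and 6767 CPM in 482N1, 7527, 5595 and 7071 in B16F10-BrM and 3407, 3831 and 4051 in E0771-BrM, which was again low (-0.91 ± 0.08 (SE) against 482N1, adjusted p = 2.19e-11). mt-Nd5 was the exception and was called in no comparison, at 447, 446 and 489 CPM in 482N1, 504, 461 and 529.8 in B16F10-BrM and 509.7, 471 and 528 in E0771-BrM. Its difference of 0.13 ± 0.07 (SE) in E0771-BrM against 482N1 (adjusted p = 0.0979) was called, as higher, without library C of 482N1 or B of E0771-BrM (adjusted p = 0.0499 and 0.0449). As a share of all mitochondrial mRNA counts, mt-Nd5 took 2.38% ± 0.169 for 482N1, 2.40% ± 0.195 for B16F10-BrM and 4.95% ± 0.452 for E0771-BrM (SD, n = 3 each). mt-Nd6, read from the strand opposite to the other mRNAs, was low everywhere. It was at 3.998, 6.26 and 8.24 CPM in 482N1, 6.35, 6.15 and 5.94 in B16F10-BrM and 1.14, 2.64 and 2.74 in E0771-BrM, where it fell, at -1.49 ± 0.30 (SE) against 482N1 (adjusted p = 1.4e-05).

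mt-Nd3 was at 91.4, 103 and 101 CPM in 482N1, 196, 117 and 135 in B16F10-BrM and 51.9, 46.4 and 64.3 in E0771-BrM. The table also has Gm28438, a gene of which 99.0% of the 50-base words are those of mt-Nd3, and it moved alongside, with means of 12.5 ± 4.65, 28.5 ± 9.18 and 6.78 ± 1.05 CPM (SD, n = 3 each). The call of mt-Nd3 in B16F10-BrM against 482N1, 0.61 ± 0.21 (SE) (adjusted p = 0.0306), was lost without library A, B or C of 482N1 (adjusted p = 0.0963, 0.071 and 0.0717) and without library A of E0771-BrM (adjusted p = 0.0501).

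The mRNA of complex III, mt-Cytb, was at 2241, 2264 and 2210.2 CPM in 482N1, 2977, 2163 and 3134 in B16F10-BrM and 1198, 1113 and 1328 in E0771-BrM. E0771-BrM was below both others, at -0.88 ± 0.11 (SE) against 482N1 (adjusted p = 3.11e-06), while library B of B16F10-BrM lay under all 3 of 482N1. The rise in B16F10-BrM, 0.30 ± 0.11 (SE) (adjusted p = 0.0214), was not called without library A or B of 482N1 or without library A or C of B16F10-BrM (adjusted p = 0.0854, 0.0845, 0.0886 and 0.0734).

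The 3 mRNAs of the complex IV core had their highest means in 482N1. mt-Co1 was at 523, 485 and 594 CPM in 482N1, 350.0, 329 and 380.1 in B16F10-BrM and 287, 302 and 317 in E0771-BrM, with no overlap. It was lower than in 482N1, at -0.60 ± 0.07 (SE) and -0.82 ± 0.07 (SE) (adjusted p = 7.17e-10 and 7.22e-14). Its smaller difference between E0771-BrM and B16F10-BrM, -0.23 ± 0.07 (SE) (adjusted p = 0.00655), was not called without library C of B16F10-BrM (adjusted p = 0.0646). mt-Co3 was at 905, 1052 and 1039 CPM in 482N1, 1003, 733 and 732 in B16F10-BrM and 506, 465 and 554 in E0771-BrM. The last was lower than 482N1, at -0.97 ± 0.11 (SE) (adjusted p = 1.34e-06). In B16F10-BrM its call, -0.28 ± 0.11 (SE) (adjusted p = 0.0336), was lost without library B or C of 482N1, B or C of B16F10-BrM, or A of E0771-BrM (adjusted p = 0.148, 0.075, 0.0907, 0.128 and 0.0531). mt-Co2 was counted at 13.3, 15.4 and 16.5 CPM in 482N1, 11.1, 9.91 and 11.8 in B16F10-BrM and 8.76, 5.999 and 10.6 in E0771-BrM. In all, 100% of its 50-base words occur in other transcripts. Per kilobase it stood at 22.01 CPM in 482N1, against 1274 for mt-Co3 and 346 for mt-Co1. Its call in B16F10-BrM against 482N1, -0.46 ± 0.18 (SE) (adjusted p = 0.0163), was lost without library C of 482N1 or B of B16F10-BrM (adjusted p = 0.0671 and 0.0631).

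The genes mt-Atp8 and mt-Atp6 of the ATP synthase lie on 1 bicistronic mRNA and differed in these counts. mt-Atp8 was at 125, 148 and 131 CPM in 482N1, 209, 194 and 181 in B16F10-BrM and 135, 114 and 160.5 in E0771-BrM. B16F10-BrM was above both others, by 0.53 ± 0.09 (SE) over 482N1 (adjusted p = 3e-06). E0771-BrM was 0.02 ± 0.09 (SE) from 482N1, not called (adjusted p = 0.853), whereas with library B alone for these 2 lines it was called lower (-0.37, adjusted p = 0.0118). mt-Atp6, with 99.5% of its words shared, was at 632, 769 and 832 CPM in 482N1, 1051, 545 and 626 in B16F10-BrM and 397, 335 and 484 in E0771-BrM. Library A of B16F10-BrM lay far above its other two. Its fall in E0771-BrM against 482N1, -0.88 ± 0.29 (SE) (adjusted p = 0.0274), was not called without library B or C of 482N1 or A or B of E0771-BrM (adjusted p = 0.0663, 0.0775, 0.0726 and 0.0833). The fall against B16F10-BrM, -0.87 ± 0.28 (SE) (adjusted p = 0.0296), was not called without library A or B of E0771-BrM (adjusted p = 0.0782 and 0.0892).

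Per kilobase of gene, the same 4 mitochondrial mRNAs led these counts in every line, mt-Nd4, mt-Nd2, mt-Nd1 and mt-Cytb. The order is uncertain for mRNAs with over 50% of their 50-base words in other transcripts, where reads may be lost or gained. These are mt-Nd4, mt-Co1, mt-Co2, mt-Co3, mt-Atp6 and mt-Nd3. mt-Nd4 was at 5136 ± 200, 4885 ± 733 and 2731 ± 238 CPM per kilobase in 482N1, B16F10-BrM and E0771-BrM (SD, n = 3 each). In B16F10-BrM mt-Nd4 and mt-Nd2 (4734 ± 446) did not differ beyond their spread. mt-Nd6 was last, at 11.9 ± 4.09, 11.8 ± 0.397 and 4.19 ± 1.73 CPM per kilobase. For scale, the nuclear genes Cox8a and Cycs lay below those 4 mRNAs in every line. Cox8a stood at 765 ± 45.6, 717 ± 48.1 and 629 ± 36.6, and Cycs at 13.2 ± 0.413, 91.9 ± 2.95 and 45.6 ± 4.09 CPM per kilobase.

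The ribosomal RNAs of the mitochondrial genome carry at most short tails, and poly(A) selection is not made to keep them. mt-Rnr1 was at 10005, 13680.0 and 13273 CPM in 482N1, 7063, 6292 and 7246 in B16F10-BrM and 4385, 5105 and 6533 in E0771-BrM. mt-Rnr2 was at 27470.5, 35984 and 36981 CPM in 482N1, 24118, 21175 and 27903 in B16F10-BrM and 9241, 11601 and 14157 in E0771-BrM. Against 482N1, B16F10-BrM was at -0.84 ± 0.18 (SE) for mt-Rnr1 and -0.46 ± 0.20 (SE) for mt-Rnr2 (adjusted p = 0.00406 and 0.0757). The second was called without library A of 482N1 or A or C of E0771-BrM (adjusted p = 0.0399, 0.012 and 0.0248). Both were lower in E0771-BrM than in 482N1, at -1.21 ± 0.18 (SE) and -1.52 ± 0.20 (SE) (adjusted p = 0.000634 and 0.000389). Against B16F10-BrM, E0771-BrM was lower for mt-Rnr2 (-1.06 ± 0.20 (SE), adjusted p = 0.0026) and was not called for mt-Rnr1 (-0.36 ± 0.18 (SE), adjusted p = 0.11), except without library A of 482N1 or C of E0771-BrM (adjusted p = 0.0297 and 0.000396). Nuclear Rn18s, which has no poly(A) tail, took its largest share in 482N1, as given above, and its part in these values was not tested. The 3 transfer RNA rows had few counts. mt-Ta was at 1.93, 1.81 and 2.15 CPM in 482N1, 1.77, 2.26 and 1.98 in B16F10-BrM and 0.508, 0.360 and 0.249 in E0771-BrM. mt-Tq was at 3.22, 3.37 and 3.55 CPM in 482N1, 3.02, 3.14 and 4.54 in B16F10-BrM and 0.254, 0.720 and 1.37 in E0771-BrM. mt-Tm was at 3.87, 5.66 and 6.08 CPM in 482N1, 3.44, 1.004 and 2.56 in B16F10-BrM and 1.903, 1.92 and 1.99 in E0771-BrM. All 3 were called lower in E0771-BrM than in 482N1.

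Genes that make or keep mitochondrial RNA were counted in the same way. Of 16 measured genes of mitochondrial genome transcription and replication, 8 were higher and 6 lower in B16F10-BrM against 482N1, 5 and 5 in E0771-BrM against 482N1, and 7 and 6 in E0771-BrM against B16F10-BrM (medians 0.08, 0.06 and 0.20). Of 20 measured genes of mitochondrial RNA processing and stability, the counts were 9 and 6, 11 and 4, and 9 and 4 (medians 0.25, 0.42 and 0.23). In percent these are 45 and 30, 55 and 20, and 45 and 20, beside 38 and 39.9, 37.7 and 40.4, and 37.2 and 36.5 of all genes tested. Lrpprc, which stabilises mitochondrial mRNAs, was at 93.1, 82.1 and 72.9 CPM in 482N1, 244, 279 and 196 in B16F10-BrM and 267, 280.3 and 237 in E0771-BrM. It rose over 482N1 by 1.53 ± 0.11 (SE) and 1.66 ± 0.11 (SE) (adjusted p = 3.25e-10 and 9.96e-11). Hsd17b10, a subunit of mitochondrial RNase P, was at 195, 173 and 183 CPM in 482N1, 27.6, 30.1 and 22.7 in B16F10-BrM and 89.6, 89.98 and 86.7 in E0771-BrM. B16F10-BrM was lowest (-2.78 ± 0.09 (SE) against 482N1, adjusted p = 1.85e-30). Rexo2, which degrades short RNAs, was at 71.1, 67.5 and 65.8 CPM in 482N1, 332, 327 and 313 in B16F10-BrM and 32.6, 33.2 and 29.7 in E0771-BrM. Pnpt1, an exoribonuclease of mitochondria, was at 10.96, 14.8 and 11.5 CPM in 482N1, 10.9, 9.66 and 15.1 in B16F10-BrM and 44.3, 46.3 and 51.2 in E0771-BrM. Their directions were opposite, with Rexo2 highest in B16F10-BrM and lowest in E0771-BrM (-3.35 ± 0.09 (SE) between these, adjusted p = 3.01e-35) and Pnpt1 highest in E0771-BrM (1.99 ± 0.14 (SE), adjusted p = 1.64e-17).

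Other steps around the chain were counted from lists. Over all genes tested, 38% were higher and 39.9% lower in B16F10-BrM against 482N1. These shares were 37.7% and 40.4% in E0771-BrM against 482N1, and 37.2% and 36.5% in E0771-BrM against B16F10-BrM. Of 37 measured assembly factors that the symbol rule leaves out, 21 were higher and 9 lower in B16F10-BrM against 482N1, 14 and 15 in E0771-BrM against 482N1, and 8 and 18 in E0771-BrM against B16F10-BrM (medians 0.58, -0.15 and -0.24). Surf1, an assembly factor of complex IV, was highest in 482N1. It was at 72.5, 66.1 and 57.04 CPM against 20.2, 17.3 and 19.9 in B16F10-BrM and 8.88, 7.92 and 10.47 in E0771-BrM (-1.76 ± 0.12 (SE) and -2.84 ± 0.13 (SE), adjusted p = 1.73e-18 and 1.8e-24). Foxred1 and Timmdc1, both factors of complex I, were lowest in 482N1. Foxred1 was at 5.03, 4.45 and 2.66 CPM in 482N1, 15.3, 14.4 and 17.5 in B16F10-BrM and 36.04, 28.1 and 34.04 in E0771-BrM. Timmdc1 was at 11.2, 6.38 and 9.51 CPM in 482N1, 40.6, 35.3 and 32.2 in B16F10-BrM and 29.4, 27.5 and 32.3 in E0771-BrM. Of the 18 TCA cycle genes, 13 were higher and 4 lower in B16F10-BrM against 482N1, 8 and 7 in E0771-BrM against 482N1, and 8 and 8 in E0771-BrM against B16F10-BrM (medians 0.56, 0.06 and -0.13). Idh3a, a subunit of the NAD-dependent isocitrate dehydrogenase, was highest in B16F10-BrM, at 145, 143 and 147 CPM against 52.1, 62.3 and 46.8 in 482N1 and 46.7, 39.5 and 41.6 in E0771-BrM. Pdha1, of pyruvate dehydrogenase, was lowest there, at 76.04, 70.1 and 81.4 CPM against 188, 181 and 168 in 482N1 and 138, 141 and 127 in E0771-BrM.

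Of 12 measured genes of coenzyme Q synthesis, 6 were higher and 5 lower in B16F10-BrM against 482N1 and 4 and 6 in E0771-BrM against 482N1. E0771-BrM against B16F10-BrM gave 4 and 5. In percent these are 50 and 41.7, 33.3 and 50, and 33.3 and 41.7. Over all genes tested the percentages were 38 and 39.9, 37.7 and 40.4, and 37.2 and 36.5. Coq7, a hydroxylase of that pathway, was graded at 16.8, 16.97 and 17.5 CPM in 482N1, 45.7, 37.3 and 39.7 in B16F10-BrM and 75.6, 77.5 and 80.4 in E0771-BrM. Of 6 measured genes that bring electrons to the chain by other routes, 2 were higher and 2 lower in B16F10-BrM against 482N1. The counts were 1 and 4 in E0771-BrM against 482N1, and 1 and 4 in E0771-BrM against B16F10-BrM. The gene higher in E0771-BrM than in 482N1 was Prodh, proline dehydrogenase. It was at 2.84, 2.29 and 1.901 CPM in 482N1, 18.1, 17.8 and 18.2 in B16F10-BrM and 9.39, 12.7 and 10.6 in E0771-BrM. Etfa, of the electron transfer flavoprotein of fatty acid oxidation, was low in E0771-BrM. It was at 34.8, 38.8 and 42.97 CPM in 482N1, 46.1, 38.6 and 39.3 in B16F10-BrM and 13.96, 15.4 and 16.96 in E0771-BrM (-1.33 ± 0.13 (SE) against 482N1, adjusted p = 2.2e-13). Of 6 measured carriers and channels that serve ATP export, 2 were higher and 1 lower in B16F10-BrM against 482N1. The counts were 2 and 3 in E0771-BrM against 482N1, and 1 and 5 in E0771-BrM against B16F10-BrM. The ADP/ATP carriers differed. Slc25a5 was at 88.6, 80.5 and 93.5 CPM in 482N1, 322, 275 and 310.3 in B16F10-BrM and 162, 147 and 149 in E0771-BrM. Slc25a4, the heart and muscle form, was at 760.1, 787 and 785 CPM in 482N1, 817, 852 and 896 in B16F10-BrM and 449, 469 and 483 in E0771-BrM.

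Of 10 measured regulators known to act on nuclear respiratory genes, 2 were higher and 6 lower in B16F10-BrM against 482N1, where 38% and 39.9% of all genes were. In E0771-BrM against 482N1 the counts were 1 and 7, beside 37.7% and 40.4% of all genes, and in E0771-BrM against B16F10-BrM 4 and 4, beside 37.2% and 36.5% (medians -0.54, -0.41 and -0.23). Ppargc1a, the coactivator PGC-1α, spanned the widest range of these. It had 233, 322 and 241 counts in 482N1, 1094, 1005 and 973 in B16F10-BrM and 2, 0 and 1 in E0771-BrM. Its level was 30.1, 38.8 and 30.5 CPM in 482N1 and 114, 126 and 113 in B16F10-BrM, a log2 fold change of 1.83 ± 0.10 (SE) (adjusted p = 3.68e-21). From the summed counts, B16F10-BrM was 949 times above E0771-BrM (95% interval 324 to 4604) and 482N1 268 times (91.5 to 1305), intervals that cover counting error alone. The 3 counts of E0771-BrM lay in libraries A and C, which also held 353 and 263 counts of Dct against 29 in library B; their source was not tested. Nrf1 was at 25.5, 20.7 and 21.04 CPM in 482N1, 27.7, 27.98 and 32.2 in B16F10-BrM and 17.6, 14.9 and 16.2 in E0771-BrM. It was the other regulator that was higher in B16F10-BrM (0.39 ± 0.13 (SE), adjusted p = 0.00529).

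Gabpa, the DNA-binding part of GABP, was at 22.3, 28.2 and 32.3 CPM in 482N1, 15.8, 16.1 and 13.9 in B16F10-BrM and 24.4, 26.3 and 29.3 in E0771-BrM. B16F10-BrM was lowest (-0.86 ± 0.14 (SE) against 482N1, adjusted p = 2.61e-07). Esrra, an orphan nuclear receptor that pairs with PGC-1α, was highest in 482N1, at 17.3, 14.4 and 16.1 CPM against 7.92, 8.78 and 6.76 in B16F10-BrM and 3.17, 3.24 and 4.86 in E0771-BrM (-1.03 ± 0.18 (SE) and -2.08 ± 0.21 (SE), adjusted p = 2.16e-06 and 1.12e-12). Yy1 had the same order at 207, 233 and 235 CPM in 482N1, 164, 166 and 179 in B16F10-BrM and 112, 129 and 129.7 in E0771-BrM. Myc, which also acts on mitochondrial genes, ran the other way from Ppargc1a between 482N1 and B16F10-BrM. It was at 17.3, 26.6 and 24.7 CPM in 482N1, 4.48, 2.76 and 3.73 in B16F10-BrM and 49.5, 38.03 and 42.6 in E0771-BrM (-2.63 ± 0.19 (SE) and 0.92 ± 0.14 (SE) against 482N1, adjusted p = 9.87e-17 and 7.25e-08).

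**Figure D5:**
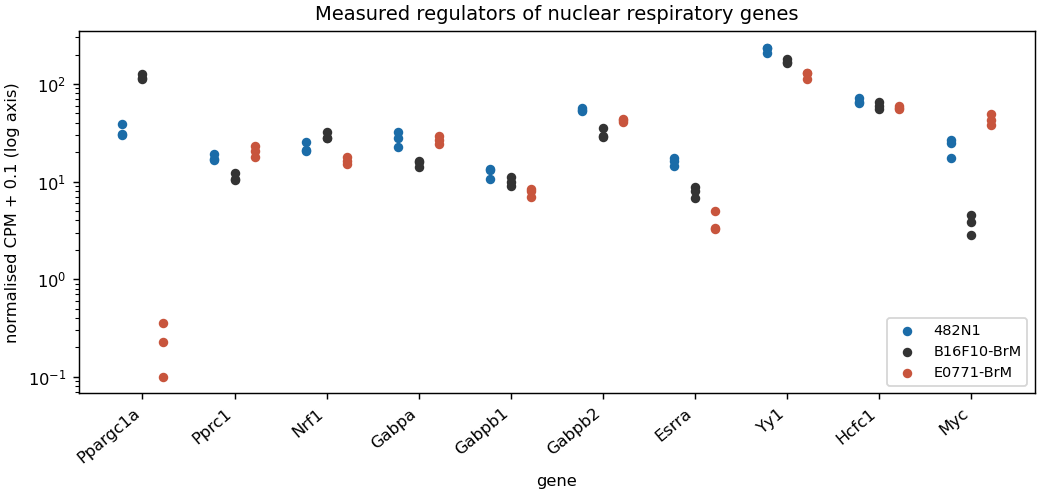
Normalised CPM + 0.1 (log axis) of 10 measured regulators of nuclear respiratory genes; points are libraries. Ppargc1a spans the widest range, from at most 2 counts in a library of E0771-BrM to at least 973 in each of B16F10-BrM, and Myc is lowest in B16F10-BrM.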

How the data were processed

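Poly(A)-selected RNA of 3 cell lines, 3 libraries each, was sequenced as strand-marked TruSeq libraries, per the labels' protocols. The authors deposited 1 table of raw read counts per gene symbol; per the submitters' processing notes they used Cufflinks 2.2.1, SAMtools 0.1.19, TopHat2 2.0.10, Bowtie 1.0.0 and FastQC with build GRCm39. The counting tool, its strand setting, the annotation and the treatment of reads with several matches are not given in the sources used here, so reads of overlapping or duplicated genes are uncertain.

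The tests used edgeR 4.0.16 under R 4.3.3: filterByExpr removed 9 genes and left 11037, TMM scaled the libraries, and a robust quasi-likelihood model with 1 coefficient per line was fitted to all 9 libraries without a block. The 3 pairwise comparisons were tested 2-sided, with Benjamini-Hochberg adjustment over all genes tested and a threshold of 0.05; the code was tested on simulated data. CPM use TMM library sizes, and SD are over the 3 libraries of a line. The edgeR SE comes from the fit to all 9 libraries, in which the lines share 1 estimate of the spread. It is the fold change fitted without added prior counts, divided by the square root of F. Shared sequence was measured as 50-base words of GENCODE M21 transcripts (build GRCm38) found in transcripts of other genes; 5 of the 117 genes had no entry there by symbol. No coordinates of the files were used. Library pairs of a line differed by 3.98 to 7.67 times the sampling noise (chi-square per degree of freedom), so none was counted as 1 library deposited again; whether libraries share a culture or RNA is not known. Intervals cover counting error alone.

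The members and lists were chosen with earlier results of these data known. Genes named with values were all mitochondrial mRNAs; per comparison and complex up to 3 called subunit genes with the largest change and no overlap between lines; per comparison up to 4 assembly factors by the same measure; tissue isoform families; subunits called nowhere; and up to 3 called genes per list and comparison. The rest (core subunits of complex I, Ndufa2, Ndufa7, Ndufa13, Ndufs5, Cyc1, Uqcrc1, Uqcrfs1, Uqcr11, Atp5a1, Atp5c1, Atp5d, Atp5e, Atp5pb, Cox10, Cox15, ribosomal and transfer RNAs, pseudogene rows, Gm28438, Nrf1, Gabpa and Yy1) were chosen after their values were seen. A gene is counted but not reported here by name. Alternatives were DESeq2 1.42.0, limma-voom (limma 3.58.1), other scalings and filters, a letter block, glmTreat at 1.5-fold, left-out libraries, and other sets of libraries.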

Additional observations from a re-analysis of the deposited data

How the results depend on the processing

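Of 501 results for single genes (167 genes in 3 comparisons), 298 kept their side of the threshold under every alternative run. Of their 10017 alternative values, 359 were no longer called, 180 of them with glmTreat and 109 with a library left out, and 58 were newly called. The 2 that changed sign did so with only library B of 482N1 and E0771-BrM, where E0771-BrM against 482N1 gave 0.072 for Cox7a2 (adjusted p = 0.632) and -0.37 for mt-Atp8 (adjusted p = 0.0118). The cause was not tested. There the median of the mitochondrial mRNAs was -0.029 in B16F10-BrM against 482N1, with 2 higher, and -1.08 in E0771-BrM against 482N1, and 1 assembly factor was lower in B16F10-BrM than in 482N1.

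Against a 1.5-fold change (glmTreat), B16F10-BrM had 4 nuclear subunits below 482N1, and there were 12 higher and 14 lower in E0771-BrM than in 482N1, and 1 and 31 in E0771-BrM against B16F10-BrM. For assembly factors they were 5 and 0, 4 and 3, and 1 and 5 in those comparisons, and for mitochondrial mRNAs 0 and 0 in the first and 6 lower in the last. For nuclear subunits higher in B16F10-BrM than in 482N1, and for mitochondrial mRNAs in E0771-BrM against 482N1, the glmTreat counts are not reported here. Over all genes glmTreat called 5400, 5343 and 4734, where the test against 0 called 8592, 8622 and 8131 and DESeq2 8337, 8348 and 7873. Upper-quartile scaling moved the nuclear median in B16F10-BrM against 482N1 to 0.79. The 6 mitochondrial mRNAs with little shared sequence were chosen after seeing the data. Of them, 3 were higher and 0 lower in B16F10-BrM against 482N1. In E0771-BrM, 4 were lower than in 482N1 and 5 lower than in B16F10-BrM.

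With 1 library left out, B16F10-BrM against 482N1 gave 1 to 2 lower assembly factors (1 without 482N1 A or B16F10-BrM C) with a median of 0.48 to 0.67. It gave 2 to 4 higher mitochondrial mRNAs (2 without 482N1 A or B) and 1 to 3 lower ones (1 without 482N1 C or B16F10-BrM B). E0771-BrM against 482N1 gave 0 to 1 higher, the 1 being mt-Nd5 without 482N1 C or E0771-BrM B.

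Without ribosomal RNA in the total, nuclear subunits took 1.56%, 2.64% and 1.73% of counts in 482N1, B16F10-BrM and E0771-BrM. Mitochondrial mRNAs took 2.07% ± 0.106, 2.47% ± 0.338 and 1.19% ± 0.123 in the same order (SD), and 482N1 and B16F10-BrM overlapped. Mitochondrial ribosomal RNA took 4.90% in 482N1 and 3.70% in B16F10-BrM. With the library letter as a replicate block, nuclear subunits gave 60 higher and 11 lower, 33 and 32, and 6 and 62 in the 3 comparisons. Same-letter libraries correlated at -0.026 to 0.149 in their deviations from the line mean, with 3 of 9 pairs over 0.1. Libraries of different letters correlated at -0.179 to 0.0735. In 11 of 18 cases a library correlated best with its own letter. Whether the letters mark a shared batch was not tested. The labels do not say so, and for that reason the main fit did not take the letters as pairs. Few counts limit mt-Nd6, the transfer RNAs, Cox7a1 in B16F10-BrM and E0771-BrM, and Ppargc1a in E0771-BrM.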
